A study of Mus musculus with 6 samples.

Results

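Slpi, which encodes the secretory leukocyte protease inhibitor, and 9 genes known as markers of tubular injury were examined in the kidney of wild-type (WT) and Selenbp1-KO mice. The probes were those that are not controls and that the array files name Slpi, Lcn2, Havcr1, Spp1, Clu, Vcam1, Krt20, Sox9, Cd44 or Timp1. This rule gave 18 of the 56605 probes on the array, and all 18 passed the filter on detection. They belong to 10 of 37028 genes. The genes were chosen with the WT and Selenbp1-KO values of these arrays known. Slpi was selected on its KO minus WT difference and the injury markers were set beside it, so the differences of all 10 genes are a description and were not tested.

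Both groups were male mice that were 8 weeks old and had been fasted for 20 h. The WT mice were C57BL/6J, and the methods name no strain for the Selenbp1-KO line. The study asked how loss of Selenbp1 alters renal mRNA, and the Selenbp1-KO line, which was made in earlier work, was compared with WT mice. RNA of the left kidney of 1 mouse was hybridized to each of 6 one-color Agilent arrays, which gave 3 WT arrays (replicates 2 to 4) and 3 Selenbp1-KO arrays (replicates 1 to 3). All 6 arrays lie on 1 slide. The position code of an array begins with 1 for WT 2 and WT 3 and with 2 for WT 4 and the 3 Selenbp1-KO arrays. This first number is called slide side here, and the labels do not say what it stands for.

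The targeted gene matched the labels. Selenbp1 lay between 7.02 and 7.07 on the WT arrays and between 3.98 and 4.13 on the Selenbp1-KO arrays (KO minus WT -2.96, limma, adjusted p = 0.00210). Levels here are the log2 of the processed signal relative to the 75th percentile of the array, and differences are Selenbp1-KO minus WT on that scale. Between 51.8% and 55.5% of the spots of an array were well above background, a flag the scanner software sets for each spot. The fit across all probes passed an unadjusted p under 0.05, the threshold of the methods, for 4479 of 56097 probes (7.98%), of which 81.1% were higher in Selenbp1-KO mice, and 2 probes had an adjusted p under 0.05. The count was 2024 without WT 2, 2627 without WT 3, 17585 without WT 4, and 2808 without KO 2. The share of higher calls was 53.8% after quantile normalization, 55.1% in the authors' value table, 93.6% with scaling by the median, 95.4% with normexp and 37.3% in a fit with slide side as a block. The median difference over all probes was 0.11, against 0.00 after quantile normalization. Over genes, each represented by its brightest probe, it was 0.13, and over the 18365 genes well above background on all arrays it was 0.02. Kidney was the labelled tissue, and all 15 proximal tubule genes and all 10 distal nephron genes of the marker lists were well above background on all 6 arrays.

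A nephron whose tubule cells are damaged sheds proteins into the urine and makes a set of proteins that the resting tubule makes little of. Lipocalin 2 and kidney injury molecule 1, the product of Havcr1, are measured in urine for this reason, and osteopontin, clusterin, keratin 20, Sox9, Vcam1, Cd44 and Timp1 mark injured tubules, tubules under repair or those that fail to repair. Slpi is a small secreted protein with a pair of WFDC (four-disulfide core) domains. It blocks serine proteases of neutrophils and mast cells, among them neutrophil elastase and cathepsin G, and is made by epithelia and by leukocytes.

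The array carries 3 probes for Slpi, all of 60 bases and on the minus strand of chromosome 2 (mm9). They are shown because the result for Slpi turns on which of them is read. The probe that starts at base 773 of the RefSeq transcript NM_011414 lies at chr2:164179849-164179908, and the probe that starts at base 175 of the same transcript lies 2100 bases away at chr2:164182009-164182068. The probe of U73004, a GenBank mRNA sequence, starts at its base 106 and lies a further 2994 bases away at chr2:164185063-164185122. The first 30 bases of each are given as the array files hold them, with no bases in capitals.
Slpi NM_011414, start 773: ttactgttttaccactaacatctccttttg
Slpi NM_011414, start 175: ctggtaaagacataaatagtgatcctcggg
Slpi U73004, start 106: tgagtaacaggagccacaaggtatgtctga
The GC content of the whole probes was 40.0%, 51.7% and 48.3% in the same order. Which exon or untranslated region each probe lies in was not determined, since no annotation on mm9 was used here.

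The Slpi probe at base 773 was higher on every Selenbp1-KO array than on any WT array. Its level was -1.66, -3.02 and -3.31 on WT 2, WT 3 and WT 4 and 1.06, -0.04 and 0.62 on KO 1, KO 2 and KO 3. The groups did not overlap, and WT 2 stood above the other WT arrays. The means were -2.66 ± 0.88 for WT and 0.55 ± 0.55 for Selenbp1-KO mice (SD, n = 3 each), which is a difference of 3.21 (SE 0.60) or 9.23-fold. For Slpi and the injury markers, the SE of a difference is taken from the pooled SD of the arrays. By absolute difference Slpi ranked 2 of 37028 genes, and this rank is part of what chose the gene. The probe was well above background on all 6 arrays, from 1.57 to 3.65 log2 units above the lowest such signal of the array in WT mice and from 4.59 to 5.87 in Selenbp1-KO mice. On slide side 2 alone, where WT 4 is the only WT array, the difference was 3.85. It was 3.71 without WT 2 and 2.88 without WT 4, and leaving out any other array gave a value between these.

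The Slpi probe at base 175 of the same transcript did not differ in this way. Its level was -4.50, -4.06 and -4.27 on WT 2, WT 3 and WT 4 and -4.55, -4.44 and -4.11 on KO 1, KO 2 and KO 3. The groups overlapped throughout, and the array with the highest level at base 773, KO 1, had the lowest level here. The means were -4.27 ± 0.22 and -4.36 ± 0.23 (SD, n = 3 each), a difference of -0.09 (SE 0.18). This probe too was well above background on all 6 arrays, but only 0.19 to 1.35 log2 units above the lowest such signal. The probe of U73004 was not well above background on any array, and the software had put a surrogate for the missing signal on all 6. Its difference of 0.40 was that of the surrogate itself, since the 8905 probes at the surrogate on all 6 arrays had a median difference of 0.38 (quartiles 0.37 and 0.40). The 9.23-fold difference of Slpi was therefore carried by 1 of 3 probes, and the mean of the 3 gave a difference of 1.17.

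**Figure D1:**
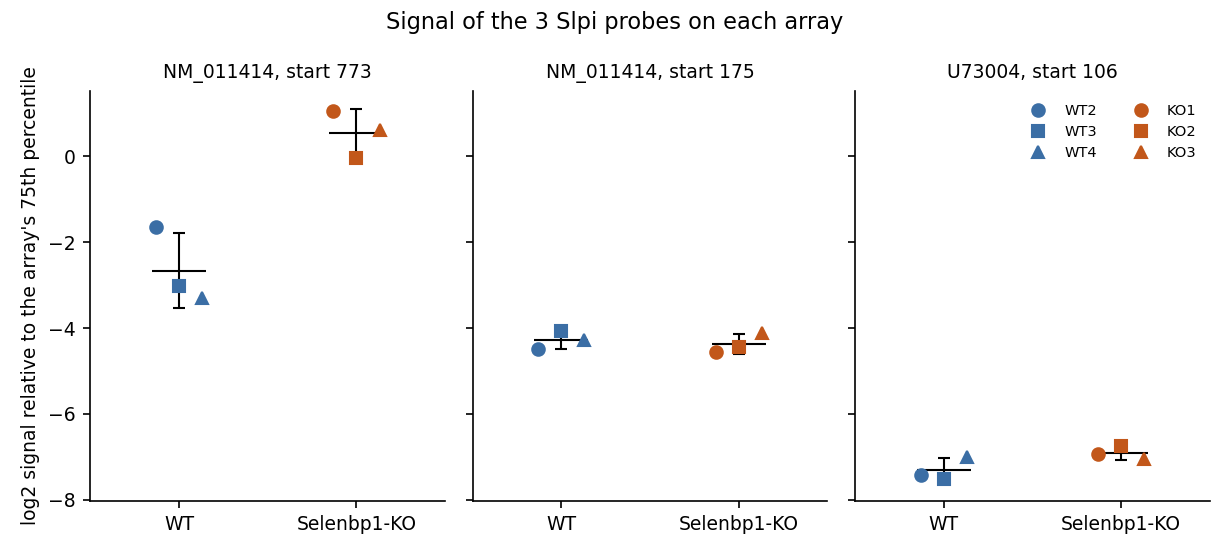
Log2 signal relative to the 75th percentile of the array (vertical axis) of each Slpi probe in WT (blue) and Selenbp1-KO (orange) mice. Each point is 1 array, the horizontal bar is the mean and the error bar the SD of 3 arrays; heights can be compared within a probe, not between probes. Only the left panel separates the genotypes (difference 3.21), the middle one does not (-0.09), and the right one holds surrogate values.

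The disagreement between the Slpi probes was set beside that of other transcripts, as a description. Among the 4282 transcripts with at least 2 probes that were well above background on all arrays, the gap between the largest and the smallest difference had a median of 0.0773 and a 95th percentile of 0.321. The gap of Slpi, 3.30, was the largest. It consists almost wholly of the difference of 3.21 on which Slpi was selected, so the rank is part of what chose the gene. The next were Tox4 with 1.16, Ddah1 with 1.08, Grn with 1.06 and Prrx2 with 0.899, which were named after their values were seen. The dimmer Slpi probe lay within 1.35 log2 units of the lowest signal well above background on every array. The gap of the Lcn2 pair was 0.192.

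**Figure D2:**
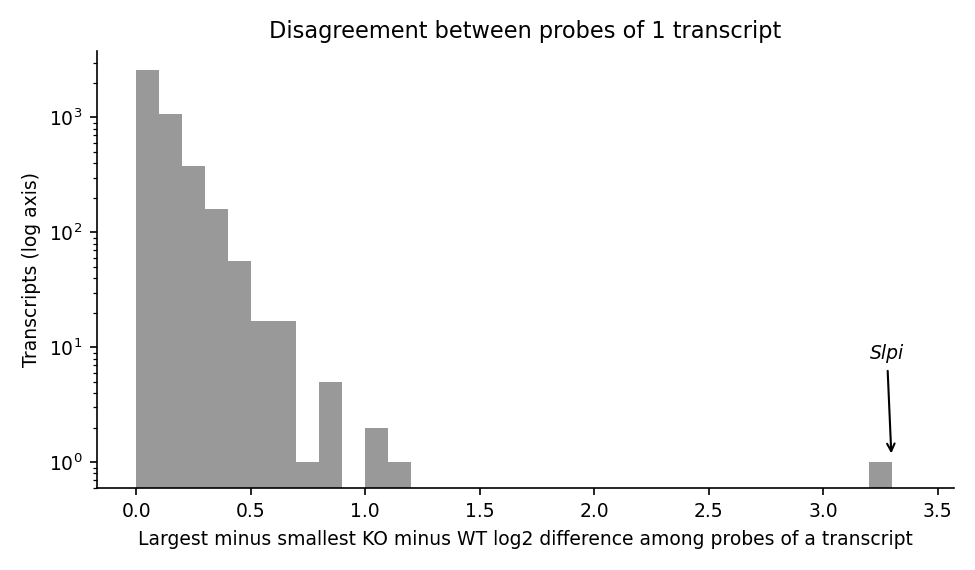
Number of transcripts (vertical log axis) by the gap between the largest and the smallest KO minus WT difference among their probes, in bins of 0.1 log2 units (horizontal axis), for 4282 transcripts with 2 or more probes well above background on all arrays. Slpi stands at 3.30, and the next transcript, Tox4, at 1.16.

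Over the brightest probe of each of the 10 genes, 6 differences were above 0 and 4 below, with a median of 0.21. Slpi and Vcam1 were higher in Selenbp1-KO mice without overlap of the groups, where 10.2% of all genes were, and Spp1 was lower without overlap, where 3.87% of all genes were (14.1% in either direction, and 19.2% of the genes well above background on all arrays). The markers most used for acute tubular injury, Lcn2 and Havcr1, had differences of -0.19 and -0.14. Apart from Slpi, the largest absolute difference among the brightest probes was 0.39, that of Vcam1. Of the 10 brightest probes, 8 were well above background on all 6 arrays, and those of Havcr1 and Sox9 were not.

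**Figure D3:**
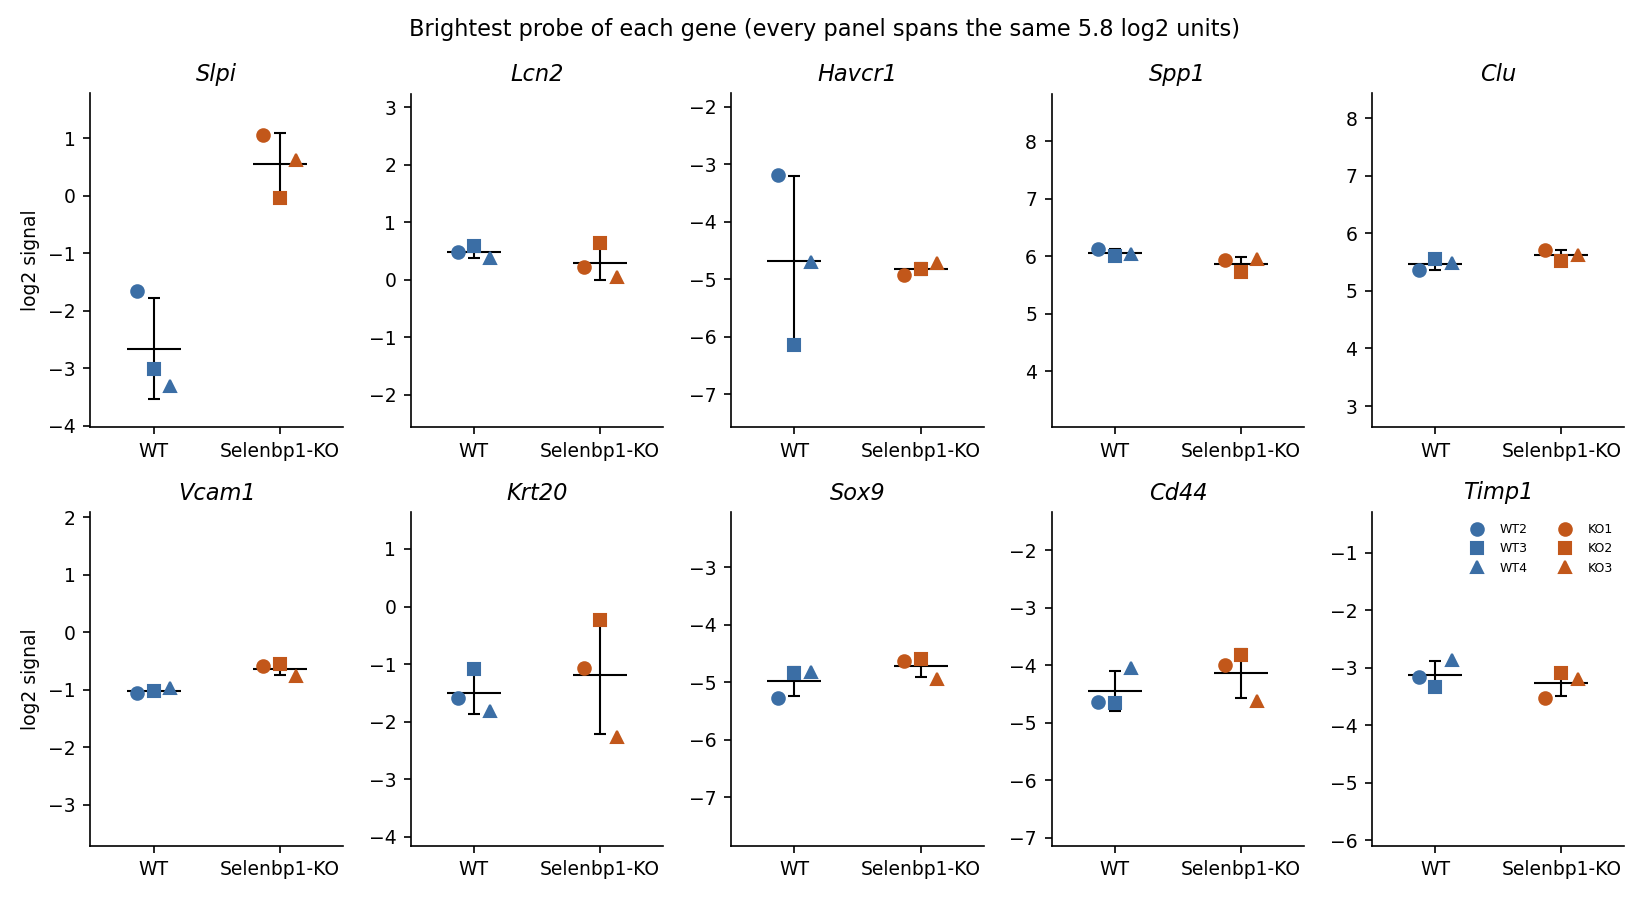
Log2 signal relative to the 75th percentile of the array (vertical axis, the same span in every panel) of the brightest probe of Slpi and the 9 injury markers in WT (blue) and Selenbp1-KO (orange) mice. Points are arrays, bars the mean and SD of 3 arrays; the genotypes are apart by 3.21 for Slpi and by no more than 0.39 in either direction for the other genes.

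At their brightest probes, the secreted markers Lcn2, Spp1, Clu and Timp1 were close between the genotypes. Lcn2, which binds iron-loaded siderophores, was 0.48, 0.59 and 0.38 on WT 2, WT 3 and WT 4 and 0.22, 0.63 and 0.04 on KO 1, KO 2 and KO 3 at its brightest probe (base 751 of NM_008491, chr2:32240199-32240258). KO 2 was the highest of all arrays and KO 3 the lowest, so the groups overlapped (difference -0.19, SE 0.18). The difference was -0.35 without KO 2, -0.06 without KO 3 and -0.08 with slide side as a block. The second Lcn2 probe, at base 447, covers 245 bases of genome with its 60 bases and so spans an exon junction. It read -1.80, -1.60 and -1.90 in WT and -2.19, -1.92 and -2.34 in Selenbp1-KO mice, lower in all 3 of the latter (difference -0.38, SE 0.15). Both Lcn2 probes thus had a mean below WT, and KO 2 was the highest and KO 3 the lowest Selenbp1-KO array on both.

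Spp1, which encodes osteopontin, a ligand of integrins and of Cd44, was 6.12, 6.00 and 6.04 in WT and 5.94, 5.73 and 5.94 in Selenbp1-KO mice. The groups did not overlap, although they were only 0.18 apart (SE 0.08). Clu, which encodes the extracellular chaperone clusterin, was 5.36, 5.55 and 5.49 in WT and 5.71, 5.52 and 5.63 in Selenbp1-KO mice, with KO 2 below WT 3 (difference 0.15, SE 0.08). After quantile normalization the Spp1 difference was -0.29 and that of Clu 0.04. Without KO 2 that of Spp1 was -0.11, and without WT 2 that of Clu was 0.10. The second Clu probe, of the transcript ENSMUST00000146990, was not well above background on any array and gives no level. Timp1, an inhibitor of matrix metalloproteinases, was -3.16, -3.34 and -2.86 in WT and -3.52, -3.09 and -3.20 in Selenbp1-KO mice. Its groups overlapped and its difference of -0.15 (SE 0.19) was 0.02 with normexp background correction and -0.41 with slide side as a block. It was -0.02 without WT 4 or without KO 1, -0.26 without WT 3 and -0.24 without KO 2.

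Among the surface receptors, Vcam1 separated the genotypes. Vcam1, through which leukocytes adhere by the integrin pair of Itga4 and Itgb1, was -1.06, -1.03 and -0.97 on the WT arrays and -0.59, -0.55 and -0.76 on the Selenbp1-KO arrays at base 3060 of NM_011693 (chr3:115813216-115813275). The groups did not overlap, and the SD of the WT arrays was only 0.045. The difference was 0.39 (SE 0.07), or 1.31-fold, with a range of 0.35 to 0.45 when arrays were left out in turn and 0.34 on slide side 2. The second Vcam1 probe, at base 842, was well above background on 2 WT arrays and on no Selenbp1-KO array and had a difference of -0.10 (SE 0.27), so no fold is given for it. The mean of both probes gave 0.14.

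Havcr1, a phosphatidylserine receptor that injured proximal tubule cells use to take up dying cells, was near background. It read -3.19, -6.15 and -4.70 on WT 2, WT 3 and WT 4, and -4.92, -4.82 and -4.72 on KO 1, KO 2 and KO 3. It was well above background on WT 2, WT 4 and KO 3 only. The 3 Selenbp1-KO arrays lay between the WT arrays, whose SD was 1.48. The difference of -0.14 (SE 0.86) was 0.60 without WT 2, -0.88 without WT 3, -0.09 without KO 1 and 0.08 with normexp. Cd44, the hyaluronan receptor, was -4.64, -4.65 and -4.05 in WT and -3.99, -3.82 and -4.62 in Selenbp1-KO mice at its brightest probe. Its groups overlapped, and the difference of 0.31 (SE 0.31) was -0.09 with slide side as a block, since WT 4 was the highest WT array. It ran from 0.14 without KO 2 and 0.20 without WT 3 to 0.51 without WT 4 and 0.54 without KO 3. The other 2 Cd44 probes were not well above background on any array.

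Krt20, an intermediate filament gene of superficial urothelium that injured tubules also express, had the widest spread among Selenbp1-KO arrays of the brightest probes. It was -1.59, -1.08 and -1.81 on WT 2, WT 3 and WT 4 and -1.07, -0.24 and -2.28 on KO 1, KO 2 and KO 3. The highest and the lowest of the 6 arrays were both Selenbp1-KO arrays. The difference of 0.30 (SE 0.63) was -0.17 without KO 2, 0.15 without WT 4, 0.51 without WT 3 and 0.85 without KO 3, and 0.62 with slide side as a block. Sox9, a transcription factor of regenerating tubule cells, was -5.28, -4.85 and -4.83 in WT and -4.62, -4.61 and -4.94 in Selenbp1-KO mice at base 1716 of NM_011448, and was well above background on 1 array of each genotype. The other Sox9 probe, at base 2634, was well above background on 1 WT array alone. It lay between -5.60 and -5.01 in WT and between -7.04 and -5.64 in Selenbp1-KO mice, so its difference of -1.11 and that of 0.26 at base 1716 (0.11 without WT 2, 0.10 with slide side as a block) had opposite signs, and neither is a measured fold.

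The array with the highest Krt20 level, KO 2, was also the highest in 8 of the 9 urothelial genes that were well above background on all arrays, and KO 3, the lowest in Krt20, was the lowest of the 6 arrays in 3 of them. Upk2, a uroplakin of the urothelial plaque, was 0.42, 0.61 and 0.17 on WT 2, WT 3 and WT 4 and 0.84, 2.09 and 0.18 on KO 1, KO 2 and KO 3. Upk1a and Upk3a, uroplakins too, had their highest level on KO 2 as well (4.19 and 3.11), as did Psca (1.48). Trp63, a transcription factor of basal epithelial cells, was the exception, with 2.41 on WT 4 against 2.17 on KO 2. The order was not particular to urothelial genes. S100a6 and Krt18 of the injury and repair list below were also highest on KO 2 (5.44 and 4.61) and lowest on KO 3 (3.87 and 3.72). Others of that list were not, such as Plau, which was highest on KO 3 (4.64). These 3 were named after their values were seen. How many of all genes were highest on KO 2 was not counted. The 10 urothelial marker genes, all measured and 9 of them well above background on all arrays, had a summed linear level of 20.1 to 21.0 in WT and 18.5 to 45.6 in Selenbp1-KO mice, and 0 of the 10 passed the unadjusted threshold (limma, lowest adjusted p = 0.334). Their median difference was 0.44. In whole tissue, more cells of a type and more RNA per cell cannot be told apart, and the part of urothelium in the Krt20 values was not tested. Upk2 was named after its values were seen.

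**Figure D4:**
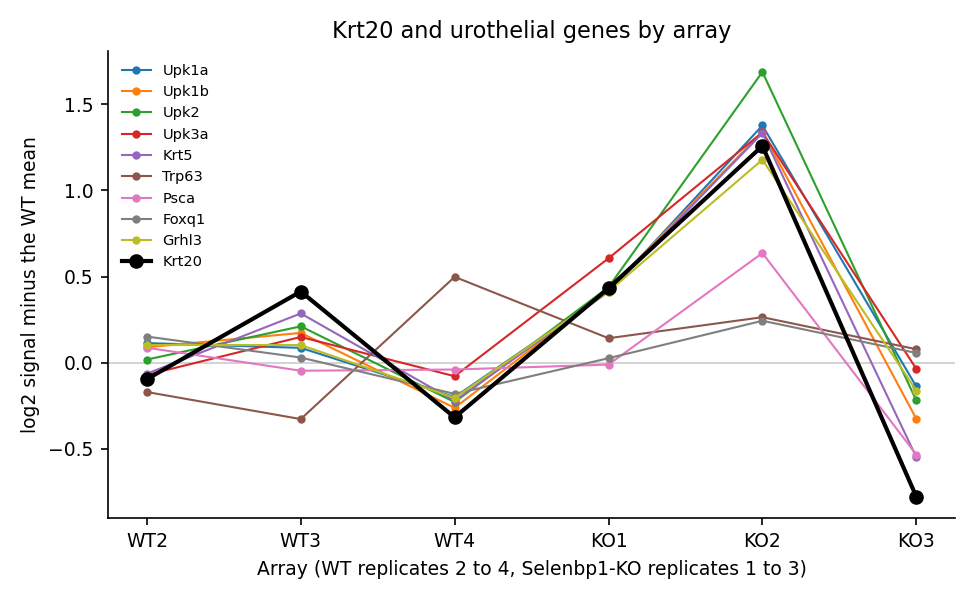
Log2 signal minus the WT mean of the same gene (vertical axis) of Krt20 (black) and the 9 urothelial genes well above background on all arrays (colors) on the 6 arrays (horizontal axis); lines join the values of 1 gene and stand for no order of the arrays. Krt20 and 8 of the 9 genes were highest on KO 2, Trp63 was highest on WT 4, and Krt20 was lowest on KO 3.

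Over the 10 brightest probes, no array was highest or lowest throughout. Within WT, WT 2 was highest in 3 genes, WT 3 in 3 and WT 4 in 4. Within Selenbp1-KO mice, KO 2 was highest in 6 genes and KO 3 lowest in 5. WT 2, the WT array with the highest Slpi level, was the highest of its group in Havcr1 and Spp1 too.

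The other genes that rise in injured or repairing tubules were taken as a list of 64, all of them tested. Of these, 6 were higher in Selenbp1-KO mice at an unadjusted p under 0.05 and 0 were lower, where 6.87% of all genes were higher and 1.13% lower (8.00% in either direction). The 6 were C3, a complement component, with a difference of 0.56 (SE 0.19), Cldn4, a tight junction claudin, with 0.62, Cdkn1a, the cell cycle inhibitor p21, with 0.58, Tgfbi, a matrix protein, with 0.43, Hbegf, an EGF receptor ligand, with 0.29, and Areg, another such ligand, with 0.72. Areg was not well above background on any array, so its difference is no measured fold. The adjusted p of all 6 was 0.279 (limma). Among the genes well above background on all arrays, 5 of 54 were higher, where 4.41% of all such genes were. The median difference of the list was 0.06 and that of these 54 genes 0.03, against 0.13 and 0.02 over all genes. Without WT 2 the count was 0 and without KO 2 it was 3. The other genes named by mean signal, Igfbp7, Krt8, S100a6 and Plau, had differences of 0.12, 0.05, 0.12 and 0.15 and did not pass. WT 2 also stood highest of the 6 arrays in Atf3 (-1.89) and Cxcl1 (-2.65), an early stress transcription factor and a neutrophil chemokine, which were named after their values were seen.

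Relatives and targets of Slpi were taken as 16 genes. Of these, 3 were higher at the unadjusted threshold and 0 lower, where 6.87% of all genes were higher and 1.13% lower. All 3 are WFDC genes, as are 8 of the 16: Wfdc1 with a difference of 0.75 (SE 0.17), Wfdc15a with 0.33 (SE 0.10) and Wfdc15b with 0.29 (SE 0.09), each with an adjusted p of 0.279 (limma). The list does not hold every WFDC gene. Wfdc16, well above background on all arrays and not on the list, was lower at the unadjusted threshold (difference -0.48, SE 0.20). Wfdc1 was -2.66, -2.28 and -2.87 in WT and -1.79, -1.90 and -1.88 in Selenbp1-KO mice. Wfdc15b was 5.42, 5.48 and 5.54 in WT and 5.78, 5.78 and 5.75 in Selenbp1-KO mice. In both genes the groups did not overlap, where 10.2% of all genes were higher without overlap. Among genes well above background on all arrays, as both are, 19.2% did not overlap in either direction. The count was 6 without WT 4 and 1 without KO 1 or without KO 3. Wfdc2, an epithelial WFDC gene, had a difference of 0.19 (SE 0.10) and did not pass. Elane, the neutrophil elastase that Slpi blocks, was -0.36, 0.05 and -0.22 in WT and -0.39, -0.31 and -0.37 in Selenbp1-KO mice (difference -0.18), while Ctsg and Tpsab1, the genes of cathepsin G and a mast cell tryptase, were not well above background on any array. Grn, whose product Slpi protects from elastase, and the binding partners Plscr1 and Anxa2 had differences of -0.0011, 0.01 and -0.09 at their brightest probes. The Grn transcript has another probe well above background on all arrays, with a difference of 1.003. The median difference was 0.30 over the list and 0.19 over the 9 genes well above background on all arrays.

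Slpi lies in a cluster of WFDC genes on chromosome 2. Within 300 kb of its probes, 35 genes were tested, of which 4 were higher and 1 lower at the unadjusted threshold, where 6.87% and 1.13% of all genes were. Of the 12 that were well above background on all arrays, Wfdc15a and Wfdc15b were higher, where 4.41% of all such genes were. Both were already counted among the Slpi relatives above. Wfdc16, named after its value was seen and not on the list of relatives, was the 1 lower gene, with a difference of -0.48. The differences of these 12 ran from -0.48 to 0.70 with a median of 0.11, so none approached the 3.21 of Slpi.

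Receptors, ligands and enzymes that work with the 9 injury markers were taken as 23 genes, of which 4 were higher at the unadjusted threshold and 0 lower, where 6.87% of all genes were higher and 1.13% lower. These were the matrix metalloproteinases Mmp2 (difference 0.61) and Mmp14 (0.42), which Timp proteins restrain, and the integrin genes Itgb7 (0.48) and Itga9 (0.29), whose products bind Vcam1 among other ligands. Their adjusted p was 0.279 (limma). The count was 1 without WT 2 and 2 without WT 3, KO 1 or KO 2, and 1 with slide side as a block. The megalin gene Lrp2, whose product takes up lipocalin 2 from the filtrate, lay between 5.85 and 6.24 in WT and between 5.91 and 6.05 in Selenbp1-KO mice (difference -0.01). Itgb1, Itgb5 and Cd63 had differences of -0.04, 0.01 and 0.10. Itga4, whose product pairs with that of Itgb1 to bind Vcam1, had a difference of -0.01 (SE 0.20) and did not pass. It was named after its value was seen. The median difference was 0.13 over the list, as over all genes, and 0.05 over its 16 genes well above background on all arrays.

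**Figure D5:**
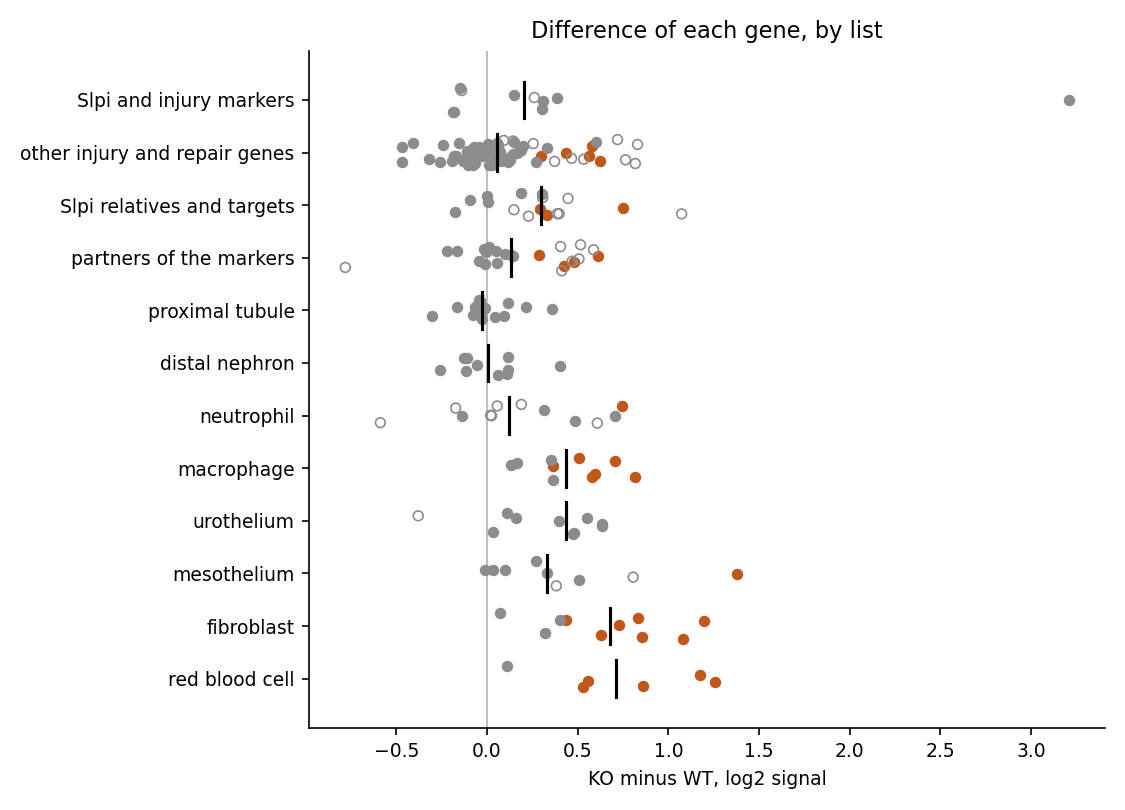
KO minus WT difference in log2 signal (horizontal axis) of each gene, by list (rows). Orange points passed an unadjusted p under 0.05 in limma, gray ones did not, open ones were not well above background on all 6 arrays, and the vertical bar is the median of the list; the first row was not tested. Slpi at 3.21 lies apart from every gene drawn, and the fibroblast and red blood cell rows have the highest medians (0.68 and 0.71).

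Markers of other cell types were set beside these values, for cell types that a piece of kidney can hold. Over all genes, 6.87% were higher and 1.13% lower at the unadjusted threshold. Of 10 fibroblast genes, 7 were higher. They were Pi16 (difference 1.20), Dpt (1.08), Lum (0.85), Dcn (0.83), Col3a1 (0.73), Gsn (0.63) and Col1a1 (0.44), while Fbln1 (0.40), Col1a2 (0.32) and Pdgfra (0.07) did not pass. The summed level of the 10 was 33.1 to 44.5 in WT and 54.8 to 71.9 in Selenbp1-KO mice. Of 10 macrophage genes, 6 were higher, namely Lyz1 (0.82), Mrc1 (0.70), C1qc (0.60), C1qa (0.58), C1qb (0.51) and Cd68 (0.36). Adgre1 (0.36), Cx3cr1 (0.35), Csf1r (0.17) and Cd14 (0.13) did not pass. The 10 had a summed level of 12.5 to 14.3 in WT and 15.3 to 16.8 in Selenbp1-KO mice, most of it the signal of Csf1r. Of 6 red blood cell genes, 5 were higher, namely Hbb-b1 (1.26), Hbb-b2 (1.17), Alas2 (0.86), Hba-a1 (0.56) and Hba-a2 (0.53), and probes of the near-identical alpha globins, or of the beta globins, may share signal. Slc4a1 (0.11) did not pass. The 6 had a summed level of 514 to 679 in WT and 719 to 1064 in Selenbp1-KO mice, most of it the signal of Hba-a1 and Hba-a2. These sums did not overlap between the genotypes. Neither did the summed level of the Slpi relatives and targets (246 to 253 in WT and 259 to 276 in Selenbp1-KO mice), and 10.2% of all genes were higher without overlap. The part of these cell types in the Slpi and Vcam1 values was not tested. Among 9 mesothelial genes tested, 2 passed, Nkain4 (1.38) and Lrrn4, which was not well above background on any array. Msln (0.51), Krt19 (0.33), Gpm6a (0.03) and Wt1 (-0.01) did not, and the summed level was 9.07 to 9.52 in WT and 9.26 to 12.2 in Selenbp1-KO mice.

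Markers of neutrophils, the cells whose proteases Slpi blocks, gave mixed signals. Of 12 neutrophil genes, 6 (Ngp, Camp, Ltf, Mpo, Cxcr2 and Mmp8) were not well above background on any array, and only Lyz2, a gene of macrophages too, passed the unadjusted threshold (difference 0.74). Ly6g, at 0.65, 1.16 and 1.01 in WT and 1.31, 1.23 and 1.23 in Selenbp1-KO mice, was higher without overlap, as 10.2% of all genes were (19.2% in either direction among genes well above background on all arrays). It did not pass (difference 0.32). Csf3r, the receptor of a granulocyte growth factor, lay between 4.67 and 5.25 in WT and between 4.64 and 5.06 in Selenbp1-KO mice (difference -0.14). S100a9 was -1.23, -3.11 and -3.00 on WT 2, WT 3 and WT 4 and -1.25, -2.14 and -1.83 on KO 1, KO 2 and KO 3. WT 2 was the highest WT array and KO 1 the highest Selenbp1-KO array, as for Slpi at base 773, but the S100a9 groups overlapped (difference 0.71). S100a8 had the same order of the highest arrays, at -3.45 on WT 2 and -3.20 on KO 1 (difference 0.48). The summed level of the 12 genes was 32.6 to 45.2 in WT and 37.0 to 45.1 in Selenbp1-KO mice, most of it the signal of Csf3r. The part of neutrophils in the Slpi values was not tested. None of the 15 proximal tubule genes and none of the 10 distal nephron genes passed the unadjusted threshold (limma, lowest adjusted p 0.279 and 0.347), and their median differences were -0.03 and 0.00. Aqp1, Kap, Acsm2 and Slc27a2 of the proximal tubule had differences of 0.11, 0.22, 0.09 and -0.03, and Umod, Egf, Slc12a1 and Aqp3 of the distal nephron had 0.12, -0.11, -0.13 and -0.11. Over all 8 marker lists, 21 of 81 genes passed, where 8.00% of all genes did. All 21 were higher, while 20 of the 24 that passed after quantile normalization were higher and 4 lower.

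The genes whose pattern over the 6 arrays was most like that of the Slpi probe at base 773 were found by the root mean square distance between log2 signals, each centred on its own mean, among the 18364 other genes well above background on all arrays. They were Retnla with a distance of 0.979, Rspo1 with 1.001, Igfbp6 with 1.02, Rpph1 with 1.03 and BC128469 with 1.11. The median gene was at 1.71. The distance was taken to the same values on which Slpi was selected, so genes with a large difference in that direction were favored. All of those named were higher in Selenbp1-KO mice without overlap, with differences from 1.62 (Rspo1) to 2.40 (Retnla). A flat gene lies at the spread of Slpi itself, so the median measures no likeness. Even 0.979 exceeded the SD of Slpi within WT (0.88) and within Selenbp1-KO mice (0.55), so none matched Slpi closely. Retnla, a secreted product of alternatively activated macrophages and of fat tissue, was -1.66, -1.15 and -3.73 in WT and 0.05, 0.72 and -0.09 in Selenbp1-KO mice. Igfbp6, an insulin-like growth factor binding protein, was 0.07, 0.99 and -0.37 in WT and 1.98, 2.10 and 2.06 in Selenbp1-KO mice. In neither of them was WT 2 the highest WT array, as it was in Slpi. The Rpph1 and BC128469 probes overlap on chromosome 14, so the pair cannot be told apart.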

How the data were processed

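The authors scanned 6 one-color (Cy3) arrays and deposited the output of Agilent Feature Extraction for each (version 10.7.1.1 in the file headers, 9.5.1.1 in the submitters' processing notes). Per the file headers, the deposited intensities are linear values from which the software had subtracted background and spatial trend, and spots not above background hold a surrogate. The deposited p-value of each spot compares it with its background. A further table the authors deposited holds linear intensities whose columns share their quartiles. Coordinates are those of the files (mm9).

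Each processed signal was divided by the 75th percentile of its array over 59305 spots that are not controls, and log2 was taken. Outlier spots were dropped and the spots of 1 probe averaged. The 56097 probes detected (p under 0.05) on at least 1 array were fitted with limma (version 3.58.1, R version 4.3.3, lmFit and eBayes, two-sided), with Benjamini-Hochberg adjustment over all of them, after the code was tested on simulated data. Accessions, without versions, were looked up in RefSeq's GRCm38.p6 gene table, which named 32994 of 56605 probes, and 1535 of these differently from the files. Each gene is read at its brightest probe over the 6 arrays. Summed levels are sums of linear signals over the 75th percentile, so the brightest genes of a list dominate them. Where no array of a genotype was well above background, a probe has only a bound in that genotype. With 3 arrays a group, the number of arrays limits the precision. A limma p-value sets a difference against the spread between arrays, with variances shared across probes. Each array is 1 mouse, so that spread holds mouse and array effects together.

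The genes and the gene lists were chosen with earlier results of these data known. The text names all probes of the 10 genes, Selenbp1, list genes past the unadjusted threshold (at most 12 a list), up to 4 more per list by mean signal, and the 5 genes most like Slpi. The alternatives tried were normexp (offset 50), quantile and median scaling, the authors' table, other filters, outlier spots kept, the methods' t-test, trended and robust limma (with statmod 1.5.0), slide side and replicate blocks, each array left out, and a gene's probes averaged.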

Additional observations from a re-analysis of the deposited data

How the results depend on the processing

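The Slpi difference of 3.21 stayed above 0 in all 16 alternatives, between 1.17 and 3.85, and moved by more than the spread between arrays only to 1.17, when the 3 probes were averaged. Vcam1 and Clu stayed above 0 and Lcn2 and Spp1 below 0 in all alternatives run, while Havcr1, Timp1, Krt20, Sox9 and Cd44 changed sign in at least 1. The count of cell type marker genes, 21, stayed within 1.5 times in all 18 alternatives (16 to 30). The count of Slpi relatives and targets, 3, was 5 with normexp, 5 with median scaling, 6 with trend and robust options, and 1 to 6 with an array left out. That of injury and repair genes, 6, was 10 with trend and robust options, 2 with the methods' t-test, and 0 to 9 with an array left out. That of partners, 4, was 1 with slide side as a block and 1 to 5 with an array left out. Over all probes, 4479 became 14616 with median scaling, 2841 over probes well above background, 7536 with trend and robust options, and 2024 to 17585 with an array left out. The cause was not tested.

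The replicate numbers do not pair the mice in the labels, and only numbers 2 and 3 occur in both groups (correlation of their deviations 0.16 and 0.21 over 26819 probes). With the replicate number as a block the Slpi difference was 2.63, Timp1 turned to 0.11, 10 injury and repair genes passed and 18430 probes did.

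Dim signal limits the reading of Havcr1, Sox9, the dimmer Slpi and Vcam1 probes and 2 of the 3 Cd44 probes.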
